A study of Mus musculus with 1483 samples.

Results

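Pvalb interneurons with a high level of Tac1 were described here from single-cell transcriptomes of mouse VISp tissue (primary visual cortex in common usage). Members were chosen by 6 transcript levels: the cells with Gad1 at 100 CPM or more (reads of a gene scaled to a total of 1000000 per cell), Slc17a7 under 10 CPM, Pvalb at 300 CPM or more, Sst and Vip each under 300 CPM, and Tac1 at 300 CPM or more. The gate took 235 of the 1483 cells, called Tac1-high cells below. The same gates with Tac1 under 300 CPM took 337 cells, called Tac1-low cells. All 33 mice were of strain C57Bl/6J, and each carried a virus in which 1 of 11 candidate enhancers drove the yellow fluorescent protein SYFP2. Fluorescent cells were sorted one by one and their polyadenylated RNA was amplified with the SMARTer v4 chemistry. All cells, those of every set compared here, were therefore cells in which a viral enhancer was active, and shares below are shares of sorted cells and not of the cortex. The age of the mice is not given in the sources used here. The enhancers with Tac1-high cells were eHGT_140h (57 cells), eHGT_128h (45), eHGT_064h (39), eHGT_079h (31), eHGT_082h (27), hDLXI56i (24), eHGT_023h (7), eHGT_019h (2), eHGT_058h (2) and eHGT_017h (1). The enhancer eHGT_078h had 0. The mouse was the replicate throughout.

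Parvalbumin interneurons are the fast-spiking inhibitory cells of the cortex, which contact the soma, proximal dendrites or axon initial segment of their targets. Their rapid firing rests on Kv3 potassium channels, dense mitochondria and a release machinery with its own isoforms of synaptotagmin and synaptobrevin. Tac1 encodes the precursor of substance P and neurokinin A, tachykinin peptides that act on the receptors encoded by Tacr1, Tacr2 and Tacr3, and a part of the Pvalb cells of the mouse cortex is known to express it.

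The promoter windows of Tac1, the gene of the gate, and of Cartpt and Rbp4, 2 of the markers given for the set, are shown because their levels are reported below. Each line is the 250 bases before the annotated start on the gene's strand, from RefSeq on GRCm38.p6. Capitals mark the cAMP response element TGACGTCA, its half-site TGACG (or CGTCA, the same letters on the other strand) and the box TATAAA. Tac1 lies on the plus strand of chromosome 6 with the window chr6:7554811-7555060, Cartpt on the minus strand with chr13:99900684-99900933, and Rbp4 on the minus strand with chr19:38124812-38125061, the downstream of its 2 annotated starts. The Cartpt window lies inside the span given for that gene below (99898483 to 99910179), so it does not precede the whole of that span. The same holds for the Rbp4 window shown and the span of Rbp4 (38116620 to 38125321).
Tac1: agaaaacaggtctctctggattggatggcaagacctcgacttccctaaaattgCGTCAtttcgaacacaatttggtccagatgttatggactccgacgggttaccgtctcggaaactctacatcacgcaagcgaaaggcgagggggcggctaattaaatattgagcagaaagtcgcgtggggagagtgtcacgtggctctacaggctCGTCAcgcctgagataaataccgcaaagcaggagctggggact
Cartpt: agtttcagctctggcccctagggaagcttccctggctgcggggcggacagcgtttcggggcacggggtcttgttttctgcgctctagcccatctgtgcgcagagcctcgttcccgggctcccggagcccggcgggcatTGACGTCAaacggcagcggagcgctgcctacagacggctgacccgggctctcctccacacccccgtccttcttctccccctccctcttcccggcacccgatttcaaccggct
Rbp4: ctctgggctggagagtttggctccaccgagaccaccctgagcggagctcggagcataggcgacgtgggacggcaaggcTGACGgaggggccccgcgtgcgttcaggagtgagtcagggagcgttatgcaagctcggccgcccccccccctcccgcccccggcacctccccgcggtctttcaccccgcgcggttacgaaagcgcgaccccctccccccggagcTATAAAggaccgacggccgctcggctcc
The Cartpt window held the full element at position -112, which contains a half-site on each strand. The Tac1 window held 2 half-sites, at -197 and -43, and the Rbp4 window shown held 1 half-site at -172 and TATAAA at -28. The window of the other Rbp4 start held none of these 3 motifs. A half-site was also in the Kcnc1 window (-236) and in 1 of 2 Syt2 windows (-161), genes that were lower in Tac1-high than in Tac1-low cells. Searched on both strands, TGACGTCA was in 1.55% of 32851 promoter windows of the same length, TGACG in 17.8% and TATAAA in 12.4%. These matches describe the letters only.

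Tac1 itself, the gene of the gate, ran over a wide range within the members. The values in this paragraph and the next chose the cells or come from genes of the gate, and are given as a description with no test. Tac1 ranged from 300.2 to 6681 CPM over the 235 Tac1-high cells, with quartiles of 552, 1123 and 1955 CPM. In Tac1-low cells the transcript was at 0 in 227 of 337 cells (67.4%), and 55 were between 100 and 300 CPM. The 3 cells just inside the gate had 300.2, 302 and 305 CPM, and the 3 just outside had 299.9, 298 and 294 CPM. The gate thus cut through a continuous upper range, while most cells below it had no Tac1 read. Among the members, 66 lay between 300 and 600 CPM and 130 at 1000 CPM or more.

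**Figure D1:**
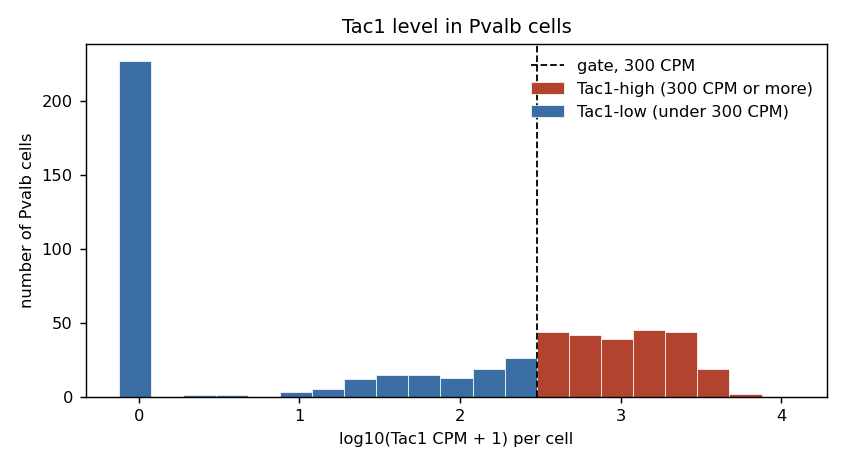
Histogram of log10(Tac1 CPM + 1) in the 572 Pvalb-gated cells, Tac1-high cells in red and Tac1-low cells in blue, with the gate at 300 CPM as a dashed line. The tallest bar holds the 227 Tac1-low cells without a Tac1 read, and the Tac1-high cells reach 6681 CPM.

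Other classes were gated in the same way. Sst, Vip and Lamp5 cells had Gad1 at 100 CPM or more, Slc17a7 under 10 CPM and their own gene at 300 CPM or more. Sst cells also had Pvalb and Vip under 300 CPM, and Lamp5 cells Pvalb, Sst and Vip under 300 CPM. Excitatory cells had Slc17a7 at 10 CPM or more with Gad1 and Gad2 under 10 CPM. Tac1 was at 300 CPM or more in 3 of 70 cells with both Pvalb and Sst at 300 CPM or more (4.29%, exact 95% interval 0.893% to 12.02%). In Sst cells it was in 10 of 245 (4.08%, 1.97% to 7.38%), and in excitatory cells in 6 of 278 (2.16%, 0.796% to 4.64%). Vip cells had 0 of 50, which allows a share of up to 6.0% when a count of 0 is taken to allow 3 cells, and 7.11% as the exact 95% upper limit. Lamp5 cells had 0 of 153, which allows up to 1.96% by 3 cells and 2.38% by the exact limit. These intervals and limits cover counting error only, since cells of 1 mouse share their source. In 18 mice with at least 3 cells of each set, Pvalb, the calcium buffer that names the class, averaged 2117 ± 303 CPM in Tac1-high cells and 3082 ± 511 CPM in Tac1-low cells (SD, n = 18 mice), and was lower in 18 of 18 mice. Gad1, the GABA-synthesising enzyme, averaged 3173 ± 639 CPM in Tac1-high cells and 3415 ± 587 CPM in Tac1-low cells.

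The members read as Pvalb interneurons of the medial ganglionic eminence lineage. Lhx6, a transcription factor of that lineage, was at 10 CPM or more in 233 of 235 Tac1-high cells, Satb1, another, in 234, and Kcnc1, Kcnc2 (Kv3 channel subunits) and Erbb4 (the neuregulin receptor) in all 235. Cox6a2, a subunit of cytochrome oxidase, was there in 233. Neither Erbb4 nor Cox6a2 is particular to Pvalb cells. Erbb4 was at 10 CPM or more in 100% of Vip cells and 100% of Lamp5 cells, and Cox6a2 in 88.2% of Lamp5 cells. Such shares of other classes are not given here for Lhx6, Satb1, Kcnc1 and Kcnc2, so these are not shown to be particular to Pvalb cells. Syt2, from the same list of Pvalb class markers, was at 10 CPM or more in only 149 of the 235 Tac1-high cells (63.4%). Of the markers given for the set, Rbp4 was at 10 CPM or more in 225 of the 235 Tac1-high cells (95.7%) and Cartpt in 195 (83.0%). Rbp4 does not mark these cells alone, since 99.6% of Sst cells also had it, against 59.6% of Tac1-low cells.

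The median cell of the series had 586338 reads. Per mouse, the median reads per cell averaged 598841 ± 74468 in Tac1-high cells and 608110 ± 67824 in Tac1-low cells, and the difference had a permutation p of 0.337 over the 18 mice. Detected genes averaged 9806 ± 393 in Tac1-high cells and 9958 ± 373 in Tac1-low cells, lower in 14 of 18 mice (permutation p = 0.0163, 2-sided). In the median Tac1-high cell, 1 read was 1.68 CPM. No 2 cells of the table had the same profile, and no doublet caller was run. Library names carry the letter G or J after their common start, and both letters occur among the mice compared.

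Beside the Tac1-low cells of the same mice, Tac1-high cells had more of a set of transcripts that included Necab1, Prss12, Zcchc12 and Rbp4, and less of a set that included Olfm3, Kcng2, Clstn2 and Grin2a. The comparison asks what else separates Pvalb cells split by Tac1. It used 214 Tac1-high and 326 Tac1-low cells of 18 mice and 7 enhancers, with mean CPM per mouse and set, log2(mean CPM + 1), the mouse as block and limma over 18142 genes. Calls needed a Benjamini-Hochberg adjusted p under 0.05 together with a log2 difference of 1 or more in either direction. By that rule 168 genes (0.926% of those tested) were called. Of these, 99 were higher (0.546%) and 69 lower (0.38%). At an adjusted p under 0.05 alone, a rule added with the results in view, 963 genes (5.31%) passed, of which 458 were higher (2.52%) and 505 lower (2.78%). The median log2 difference over all genes tested was -0.02. The p-values rest on mice as replicates.

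Necab1 (chromosome 4, 14952245 to 15149804), an EF-hand calcium-binding protein, had the largest rise of the genes named by the rule. Over the 18 mice it had a lowest, median and highest mean of 19.3, 58.1 and 115 CPM in Tac1-high cells, against 0, 3.89 and 32.1 CPM in Tac1-low cells. It was higher in 18 of 18 mice, by 3.41 on the log2 scale (SE 0.41, limma adjusted p = 6.42e-06). The ranges over mice overlapped, and the level came from a minority of cells: 99 of 235 Tac1-high cells (42.1%) had it at 10 CPM or more, against 30 of 337 Tac1-low cells (8.90%). Zcchc12 (chromosome X, 36195904 to 36199164), a zinc finger coactivator, had 86.3, 163 and 309 CPM in Tac1-high cells, against 13.5, 40.2 and 108 CPM in Tac1-low cells. Its log2 difference of 2.15 (SE 0.18, limma adjusted p = 6.52e-08) held the same sign in all 18 mice.

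Rbp4 (chromosome 19, 38116620 to 38125321), the carrier protein of retinol, was higher in every mouse. Its lowest, median and highest mouse had 149.9, 327 and 523 CPM in Tac1-high cells, against 37.8, 99.7 and 213 CPM in Tac1-low cells. The log2 difference was 1.74 (SE 0.20, limma adjusted p = 4.13e-06). Of the list of retinoid genes, 6 could be tested and Rbp4, a marker given for the set, was the 1 called, with a list median of -0.13. Like the other lists, this list was chosen with earlier results of these data known. The receptors Rara, Rarb and Rxrg did not pass, at 0.27, -0.32 and -0.14 on the log2 scale.

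Other rises came from synaptic and signalling genes. Prss12, the secreted protease neurotrypsin, averaged 31.99 ± 15.9 CPM in Tac1-high cells and 4.98 ± 4.19 CPM in Tac1-low cells (log2 2.66), higher in 18 of 18 mice. Ptprt, a receptor tyrosine phosphatase, averaged 57.6 ± 29.2 CPM in Tac1-high cells and 13.8 ± 10.1 CPM in Tac1-low cells (log2 2.24). Cnih3, an auxiliary subunit of AMPA receptors, was higher in 17 of 18 mice with a log2 difference of 2.12. The synaptotagmin Syt5 (2.06) and the adenylyl cyclase Adcy2 (1.90) were called as well, at lower levels. Fam150b, a ligand of the receptor kinase ALK, had a log2 difference of 1.71, the sialyltransferase St6galnac5 1.63, and the galectin Lgals1 1.59. The ranges over mice overlapped between the sets for each of these genes.

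Among the falls, Clstn2 (chromosome 9, 97444395 to 98033373), a calsyntenin of postsynaptic membranes, was lower in every mouse. Its lowest, median and highest mean was 12.6, 49.9 and 116 CPM in Tac1-high cells, against 96.3, 129.6 and 221 CPM in Tac1-low cells, a log2 difference of -1.32 (SE 0.15, limma adjusted p = 2.9e-06). Olfm3, a secreted olfactomedin protein, averaged 8.83 ± 8.56 CPM in Tac1-high cells and 50.0 ± 43.3 CPM in Tac1-low cells and was lower in 18 of 18 mice (log2 -2.68). Kcng2, a modulatory potassium channel subunit, averaged 3.59 ± 3.63 CPM in Tac1-high cells and 22.7 ± 11.8 CPM in Tac1-low cells, lower in 16 of 18 mice (log2 -2.60). Adora1, the A1 adenosine receptor, averaged 10.3 ± 5.87 CPM in Tac1-high cells and 27.6 ± 7.88 CPM in Tac1-low cells (log2 -1.62, lower in 18 of 18), and Ramp3, a partner of calcitonin-type receptors, had a log2 difference of -2.11. The heparan sulfate enzyme Hs6st3 (-2.37), the membrane protein Itm2a (-2.27), Brinp3 (-1.78) and the cadherin Cdh20 (-1.40) were called as well. Nrg1, Akr1c18 and Scn4b, named by the same rule, are given with their lists.

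**Figure D2:**
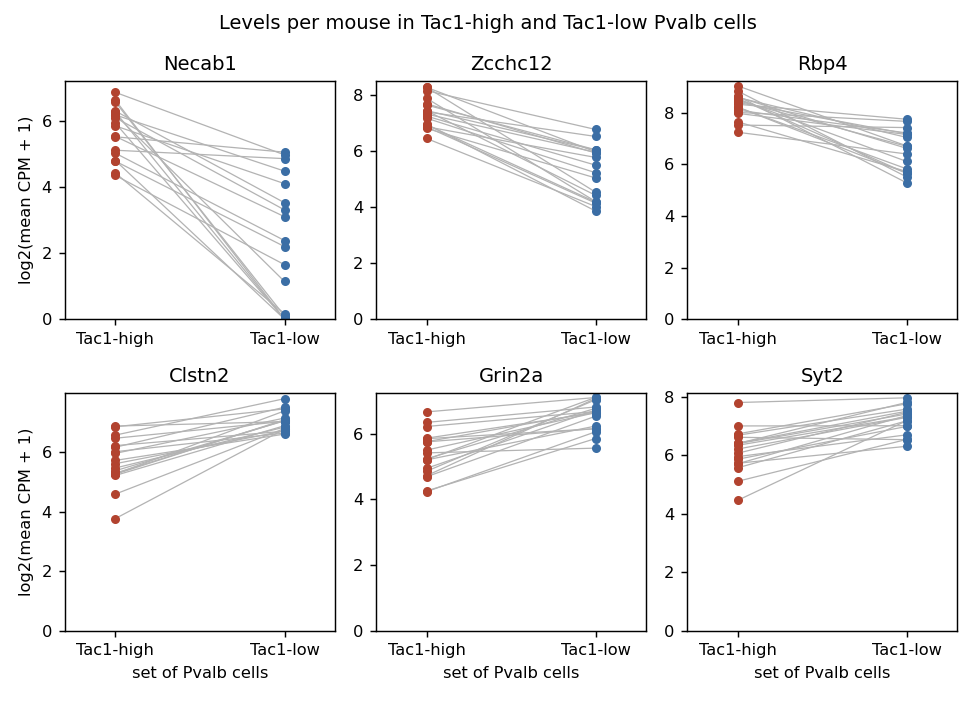
Mean level per mouse, as log2(mean CPM + 1), of 6 genes in Tac1-high (red, left) and Tac1-low (blue, right) Pvalb cells, with a line joining the 2 sets of each of the 18 mice. Necab1, Zcchc12 and Rbp4 slope down to the right in all 18 mice, Clstn2 and Grin2a slope up in all 18, and Syt2 in 17.

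The fast-spiking channel genes were mostly lower in Tac1-high cells, by small steps. Of 14 tested, 1 was called lower and 0 higher, and at the adjusted p alone 10 were lower and 1 higher, with a list median of -0.27 against -0.02 over all genes. Kcna1, a Kv1 axonal potassium channel, averaged 259 ± 53.3 CPM in Tac1-high cells and 409 ± 66.1 CPM in Tac1-low cells (log2 -0.67, limma adjusted p = 4.24e-09), lower in 18 of 18 mice. Kcnc1, the Kv3 subunit given as a marker, averaged 605 ± 102 CPM in Tac1-high cells and 697 ± 118 CPM in Tac1-low cells, a log2 difference of -0.20 (SE 0.03, limma adjusted p = 4.27e-05) with 18 of 18 mice lower. Kcnc2, a further Kv3 subunit, went the other way, with 681 ± 179 CPM in Tac1-high cells and 559 ± 137 CPM in Tac1-low cells (log2 0.28, higher in 16 of 18). The sodium channel subunits Scn8a (-0.36) and Scn1a (-0.14) passed at the adjusted p alone. Scn4b, the beta subunit of resurgent sodium current, was the called gene, at 9.52 ± 8.88 CPM in Tac1-high cells and 20.4 ± 12.7 CPM in Tac1-low cells (log2 -1.19), and its call ended without the mouse block (adjusted p = 0.0675).

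Genes of energy metabolism had negative log2 differences in 15 of 15 tested, and 9 of them passed at the adjusted p alone with 0 called, the list median being -0.09. Ckb, brain creatine kinase, averaged 3441 ± 417 CPM in Tac1-high cells and 4294 ± 590.2 CPM in Tac1-low cells (log2 -0.32, lower in 18 of 18). Esrrg, a nuclear receptor of mitochondrial genes, had a log2 difference of -0.47, its coactivator Ppargc1a -0.25, and Cox6a2 -0.35. Perineuronal net genes had 3 of 9 lower at the adjusted p alone and 0 called, with a median of -0.24. These were Hapln4, a link protein (-0.52), the tenascin Tnr (-0.58) and the lectican Bcan (-0.38), while Acan, the net's main lectican, stood at -0.56 and did not pass (limma adjusted p = 0.327). Detected genes per cell were also fewer in Tac1-high cells, by 152 per mouse on average, and the part of this in these small differences was not tested.

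**Figure D3:**
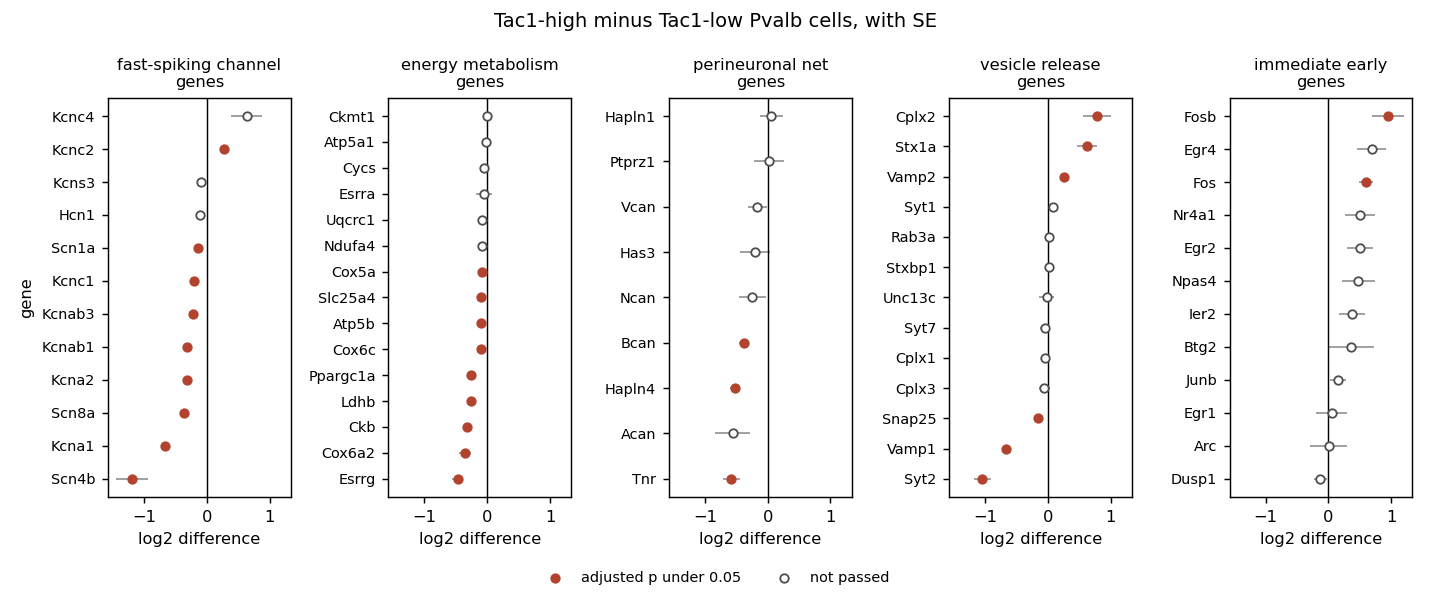
Log2 differences, Tac1-high minus Tac1-low Pvalb cells, with SE from limma (18 mice), for genes tested in 5 lists, with 12 of the 14 channel genes shown. Filled points passed at an adjusted p under 0.05, open points did not: 8 of the 9 filled channel genes, all 9 filled metabolism genes and all 3 filled net genes lie below 0, and both filled immediate early genes above.

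Vesicle release genes moved both ways. Of 13 tested, 3 passed higher and 3 lower at the adjusted p alone, with 1 called, and the median was -0.02. Syt2, the fast calcium sensor of Pvalb terminals, was the called gene. Its lowest, median and highest mouse had 21.1, 76.9 and 223 CPM in Tac1-high cells, against 78.5, 158 and 249.9 CPM in Tac1-low cells (log2 -1.05, limma adjusted p = 1.57e-05), lower in 17 of 18 mice. It was at 10 CPM or more in 63.4% of Tac1-high cells, against 90.5% of Tac1-low cells. Vamp1, the synaptobrevin of fast synapses, averaged 365 ± 103 CPM in Tac1-high cells and 579 ± 155 CPM in Tac1-low cells (log2 -0.67, lower in 18 of 18), while its paralog Vamp2 had a log2 difference of 0.26 and was higher in 18 of 18. The complexin Cplx2 (0.78) and the syntaxin Stx1a (0.62) were higher and Snap25 (-0.16) lower at the adjusted p alone.

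Peptide genes other than Tac1 were higher where they passed. Of 10 neuropeptide precursors tested, 3 were higher and 0 lower at the adjusted p alone, 0 were called, and the median was 0.56. Cartpt (chromosome 13, 99898483 to 99910179), the precursor of the CART peptides, had a lowest, median and highest mouse of 31.9, 146 and 442 CPM in Tac1-high cells, against 38.3, 75.2 and 204 CPM in Tac1-low cells. It was higher in 15 of 18 mice with a log2 difference of 0.79 (SE 0.17, limma adjusted p = 0.00418), under the fold limit, and was called against Tac1-low cells with under 10 CPM of Tac1 (log2 1.82). Cort, cortistatin, averaged 418 ± 165 CPM in Tac1-high cells and 225 ± 105 CPM in Tac1-low cells (log2 0.92), and Vgf, a granule peptide precursor, 240.3 ± 64.0 CPM in Tac1-high cells and 169.8 ± 62.0 CPM in Tac1-low cells (log2 0.54). Npy varied too much to pass, with 725 ± 490 CPM in Tac1-high cells and 309 ± 245 CPM in Tac1-low cells (log2 1.44, limma adjusted p = 0.0789). Of 13 genes of peptide processing and dense-core granules, 3 were higher and 2 lower at the adjusted p alone and 0 were called, with a median of 0.07. The granin Scg2 (0.62), the prohormone convertase Pcsk2 (0.76) and the carboxypeptidase Cpe (0.24) were higher, and Chgb (-0.34) and the granule priming factor Cadps (-0.29) lower. Of the tachykinin receptors, Tacr3 was called higher at 20.9 ± 12.6 CPM in Tac1-high cells and 8.24 ± 8.23 CPM in Tac1-low cells (log2 1.58, limma adjusted p = 0.0102). Its call ended under 5 other settings, among them a Tac1 gate of 1000 CPM (log2 0.23) and letter G mice alone (log2 1.35). Tacr1 did not pass (log2 0.07), and Tacr2, Tac2 and Tac4 were under the filter on low values.

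Receptor and adhesion lists held single large changes among small ones. Of 13 glutamate receptor genes 1 was called, Grin2a, the GluN2A subunit of NMDA receptors, at 45.2 ± 22.5 CPM in Tac1-high cells and 96.5 ± 27.8 CPM in Tac1-low cells (log2 -1.17, lower in 18 of 18). At the adjusted p alone 3 were higher and 2 lower, among them the AMPA receptor subunits Gria1 (0.30) and Gria4 (0.31) and the kainate receptor subunits Grik1 (0.49) and Grik2 (-0.42), and the median was 0.08. Of 12 genes of the neuregulin and neurexin pathways, Nrg1, the ErbB ligand, was called lower (log2 -1.24) and the pentraxin Nptx1 higher (log2 1.17), at 4.75 ± 3.88 CPM in Tac1-high cells and 1.33 ± 1.28 CPM in Tac1-low cells. Nptx1 lost its call under 5 other settings, among them mice of at least 5 cells per set (log2 0.98) and letter G mice alone (log2 0.88), and the list median was 0.01. Of 11 genes of GABA synthesis, transport and reception, 0 were called and 1 was higher and 4 lower at the adjusted p alone (median 0.01). Gad2, the second GABA-synthesising enzyme, averaged 567 ± 86.4 CPM in Tac1-high cells and 416 ± 51.8 CPM in Tac1-low cells (log2 0.44, higher in 18 of 18), and Gabrd, the delta subunit of tonic GABA-A receptors, 334 ± 38.1 CPM in Tac1-high cells and 434 ± 47.7 CPM in Tac1-low cells (log2 -0.38, lower in 18 of 18). Of 9 calcium-binding protein genes tested, Necab1 was the 1 called, and at the adjusted p alone 2 were higher and 2 lower (median 0.08).

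Of 12 transcription factors of the MGE and DLX list 0 passed either rule, a count near the background share, with a median of -0.03, Lhx6 standing at 0.17 (limma adjusted p = 0.0916) and Satb1 at -0.07. Immediate early genes had positive log2 differences in 11 of 12, with 2 passing at the adjusted p alone, 0 called and a median of 0.42. Fos averaged 139 ± 86.3 CPM in Tac1-high cells and 94.7 ± 76.5 CPM in Tac1-low cells (log2 0.60, higher in 15 of 18). Fosb had a log2 difference of 0.95 and was called under several settings, with 1.12 without MouseID-498750. Its level was low, at 3.99 ± 3.19 CPM in Tac1-high and 1.62 ± 1.92 CPM in Tac1-low cells, where 1 read was 1.68 CPM in the median Tac1-high cell. It was at 10 CPM or more in 13.2% of Tac1-high and 5.34% of Tac1-low cells. Of 8 interferon response genes 0 passed either rule, also a count near the background share (median -0.13). Both sets carried a virus, so their difference does not measure a response to it.

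Genes that mark subtypes of Pvalb cells divided between the sets. Of 15 tested, 1 was called higher and 3 lower, with a median of -0.17. Islr, a leucine-rich repeat protein, was higher at 5.66 ± 4.47 CPM in Tac1-high cells and 1.12 ± 1.46 CPM in Tac1-low cells (log2 1.46), and its call ended under 4 other settings, among them letter G mice alone (log2 1.29). Itm2a was lower (log2 -2.27), as was Akr1c18, a steroid dehydrogenase, at 124 ± 64.9 CPM in Tac1-high cells and 262 ± 94.7 CPM in Tac1-low cells (log2 -1.21, lower in 17 of 18). Akr1c18 belongs to a family of similar genes, and how reads shared within it were counted is not given in the sources used here. Reln, the secreted glycoprotein reelin, was lower at 5.46 ± 8.71 CPM in Tac1-high cells and 11.1 ± 8.85 CPM in Tac1-low cells (log2 -1.54, limma adjusted p = 0.0165), a call that ended under 7 other settings, among them limma's voom on recovered reads (adjusted p = 0.125). Calb1 did not pass, with 816 ± 500.2 CPM in Tac1-high cells and 482 ± 310 CPM in Tac1-low cells (limma adjusted p = 0.21, log2 0.83).

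Markers of other cell types stayed low, with exceptions in single genes. The 8 Sst cell markers other than Sst summed to between 32.1 and 137 CPM per mouse in Tac1-high cells and between 80.5 and 161 CPM in Tac1-low cells, and Mybpc1 was the 1 called of 5 tested (log2 -1.04, median of the list -0.45). Mybpc1 is not particular to Sst cells here, being at 10 CPM or more in 60.9% of Tac1-high cells, 85.8% of Tac1-low cells and 1.22% of Sst cells, and Chodl was at 0 in every Tac1-high cell. The median over mice was 59.2 CPM in Tac1-high and 121 CPM in Tac1-low cells for Mybpc1 alone. For the sum it was 71.2 and 133 CPM, so the sum mostly follows Mybpc1 and does not measure Sst cell signal. The 7 Lamp5 markers, Npy among them, summed to between 150.2 and 1941 CPM in Tac1-high cells and between 27.8 and 943 CPM in Tac1-low cells. Of 5 tested, Id2, a transcription inhibitor, was called higher at 18.1 ± 15.03 CPM in Tac1-high cells and 6.80 ± 6.40 CPM in Tac1-low cells (log2 1.24, list median -0.06). The call of Id2 ended with a Tac1 gate of 1000 CPM (log2 0.92) and with a pseudocount of 10 (log2 0.66). In the same list, Ndnf and Krt73 were at 0 in every Tac1-high cell and Lamp5 was at 10 CPM or more in 1.28% of them. The 8 excitatory markers other than Slc17a7 summed to between 16.9 and 60.1 CPM in Tac1-high cells and between 31.96 and 87.2 CPM in Tac1-low cells, with Neurod2 at 0 in every Tac1-high cell. Rorb was the 1 called of 3 tested, lower at 0.838 ± 1.63 CPM in Tac1-high cells and 4.22 ± 4.42 CPM in Tac1-low cells (list median -0.50), a call that ended under 4 other settings, among them letter G mice alone (log2 -0.93). The 5 Vip markers other than Vip summed to at most 0.695 CPM in a mouse's Tac1-high cells and 3.03 CPM in its Tac1-low cells, and of 2 tested 0 passed (median -0.26). The 14 glial and vascular markers summed to between 3.65 and 106 CPM in Tac1-high cells and between 12.1 and 110.2 CPM in Tac1-low cells, and of 7 tested 0 passed (median -0.08). The part of these levels in the results was not tested.

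Across the 572 Pvalb-gated cells, the genes whose level followed Tac1 most closely within a mouse included Prmt2, Cadm1, St6galnac5, Rbp4, Zcchc12, Ly6h and Zwint. The measure was Spearman's rho over the cells of a mouse, averaged over 19 mice with 555 cells and computed for 9600 genes. It was 0.53 for Prmt2, an arginine methyltransferase, 0.53 for the adhesion protein Cadm1, 0.49 for Rbp4 and 0.44 for Zwint. The lowest values were -0.48 for Clstn2, -0.47 for the adhesion protein Lsamp, -0.45 for Luzp2 and -0.45 for Neto2, an auxiliary subunit of kainate receptors. Cells of a mouse share their sorting and libraries, so these values are descriptions with no test.

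Tac1-high cells also differed among themselves. The genes of highest variance in them were Calb1, Npy, Ndn, Il1rapl2, Aldoc, Akr1c18, Necab1, Moxd1, Lypd6 and Syt2. Calb1, the calcium buffer calbindin, was at 0 in 93 of 235 cells and reached 4383 CPM. Npy was at 0 in 80 cells and reached 10447 CPM in 1. The glycolytic enzyme Aldoc was at 0 in 90 cells with a median of 32.8 CPM, and Ndn, necdin, at 0 in 84 with a median of 224 CPM. The mean of Calb1 per mouse ran from 131 to 2157 CPM, and that of Npy from 128 to 1909 CPM.

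Set against all other sorted cells of the same mice, Tac1-high cells had higher Prss12, Fam150b and Cartpt and lacked many transcripts of other classes. Several of those transcripts were low in Tac1-low cells too. The other cells were a mix set by each enhancer, Tac1-low Pvalb cells among them. The fit used 20 mice, 230 Tac1-high and 700 other cells and 18984 genes. It called 524 genes (2.76%), 41 of them higher (0.216%) and 483 lower (2.54%). At the adjusted p alone 2031 passed (10.7%), 536 higher (2.82%) and 1495 lower (7.88%), with a median log2 difference of -0.08 over all genes. The split of called genes changed with other scales, to 151 higher of 262 with the mean of log2 values over cells and to 220 higher of 892 with voom.

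Cartpt averaged 197 ± 145 CPM in Tac1-high cells and 63.3 ± 38.6 CPM in other cells (log2 1.43, SE 0.21, limma adjusted p = 7.53e-05), higher in 19 of 20 mice. Prss12 averaged 29.2 ± 17.3 CPM in Tac1-high cells and 5.78 ± 2.95 CPM in other cells (log2 1.93), and Fam150b 87.1 ± 44.8 CPM in Tac1-high cells and 25.8 ± 11.4 CPM in other cells (log2 1.68, higher in 20 of 20). Gucy1a3, a subunit of the nitric oxide receptor guanylate cyclase, averaged 98.2 ± 18.4 CPM in Tac1-high cells and 41.6 ± 15.2 CPM in other cells (log2 1.29, higher in 20 of 20). The kinase Zak (1.29), the transcription factor Eya1 (1.20), the protease Prss23 (1.18), the neurexin-family protein Cntnap5c (1.17), the sialyltransferase St3gal6 (1.13), the phosphatase Ptpre (1.13), the secreted Wnt inhibitor Wif1 (1.12) and the myosin Myo1e (1.10) were also called. Of the rises named here, only Prss12 and Fam150b were also named against Tac1-low cells. Over all cells of a class, Cntnap5c averaged 181 CPM in Tac1-high, 113 CPM in Tac1-low and 118 CPM in Vip cells. Eya1 averaged 35.5 CPM in Tac1-high and 13.9 CPM in Tac1-low cells. The call of Wif1 ended under 5 other settings, among them mice of at least 5 cells per set (log2 0.99) and letter G mice alone (log2 1.01, limma adjusted p = 0.138). The call of Myo1e ended under 5 other settings, among them without MouseID-384912 (log2 0.89) and without the 3 hDLXI56i mice (log2 0.81). Without those 3 mice the calls of Prss23 and St3gal6 also ended (log2 0.94 and 0.90). The call of Cartpt ended with a Tac1 gate of 1000 CPM (log2 0.97). Rbp4, at a log2 difference of -0.05, did not pass here (limma adjusted p = 0.892), and Necab1 stood at 0.39 (adjusted p = 0.445).

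The falls named genes of other interneuron classes, and some of these were also high in excitatory cells. Over all excitatory cells the mean was 388 CPM for Cacna2d3 and 321 CPM for Fxyd6, against 0.383 CPM for Calb2 and 5.21 CPM for Crh. Pdyn, the prodynorphin precursor, was at 0 in the Tac1-high cells of all 20 mice, against a mean of 264 ± 301.2 CPM in other cells (limma adjusted p = 3.86e-06), and no fold is given. Pdyn was lower in 16 of the 20 mice, and in the rest both sets were at 0. Synpr, the vesicle protein synaptoporin, averaged 35.1 ± 41.97 CPM in Tac1-high cells and 668 ± 491 CPM in other cells (log2 -5.33), lower in 20 of 20 mice. Reln averaged 5.89 ± 8.86 CPM in Tac1-high cells and 104 ± 99.4 CPM in other cells (log2 -4.50), and the calcium channel subunit Cacna2d3 6.12 ± 7.04 CPM in Tac1-high cells and 148 ± 102 CPM in other cells (log2 -4.66), both lower in 20 of 20. Calretinin (Calb2, -3.97), the NMDA receptor subunit Grin3a (-3.92), the corticotropin-releasing hormone Crh (-3.59), the phosphodiesterase Pde1a (-4.55), Fxyd6 (-4.54), Rgs6 (-3.64), Tox (-3.62) and Galnt14 (-3.54) completed the named falls. Calb2 was lower in 17 of 20 mice and higher in 3, Crh lower in 16 and higher in 1, and Fxyd6 lower in 17 and higher in 0. With the mean of log2 values over cells the calls of Calb2 (log2 -0.89) and Crh (log2 -0.50) ended. Several of these low levels were not particular to Tac1-high cells. Over all Tac1-low cells the mean was 0.295 CPM for Calb2, 1.91 for Crh, 0.0572 for Fxyd6, 9.55 for Grin3a and 15.8 for Cacna2d3. Over all Tac1-high cells it was 0.110, 1.24, 1.26, 6.26 and 6.35 CPM in the same order. Of the lists, 6 of 8 Sst markers were lower (median -2.03), 3 of 4 Vip markers (-2.26), 2 of 6 Lamp5 markers (-1.27), 3 of 8 excitatory markers (-0.85) and 0 of 9 glial and vascular markers (-0.47), with 0 higher in each. Neuropeptide precursors had 1 higher, Cartpt, and 5 lower of 15 (median -0.48). Energy metabolism genes had 9 of 15 higher and 0 lower at the adjusted p alone (0 called, median 0.17), and fast-spiking channel genes 5 higher and 1 lower of 14 (1 called lower, Kcnc4, median 0.09). The log2 difference was 0.40 for Kcnc1 and 0.68 for Kcnc2.

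The share of Tac1-high cells among Pvalb cells differed between enhancers. Over 20 mice with at least 5 Pvalb cells, 230 of 560 cells were Tac1-high. The share was 64.6% ± 20.2 for hDLXI56i (n = 3), 55.4% ± 12.4 for eHGT_064h (n = 4), 45.5% ± 3.79 for eHGT_140h (n = 3), 38.3% ± 7.07 for eHGT_082h (n = 2), 37.95% ± 10.7 for eHGT_079h (n = 3), 37.7% ± 8.35 for eHGT_128h (n = 3) and 14.6% ± 2.95 for eHGT_023h (n = 2). The 2 eHGT_023h mice, at 12.5% and 16.7%, lay below all 18 others, whose lowest was 25.7%, while the range over mice of each of the other enhancers overlapped with that of the next in this order.

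The permutation test over these mice gave p = 0.00636 (100000 resamples, on the spread between enhancer means). Of 21 pairs of enhancers 0 passed, with a smallest exact permutation p of 0.1 and adjusted p of 0.35, and 3 mice against 3 cannot go below 0.1. The result rests on eHGT_023h: without its 2 mice the permutation p was 0.0674, as it was without either 1 of them (MouseID-497549 or MouseID-498748), which leaves that enhancer out of the test. Both were letter J mice, and among the 14 letter G mice, which hold none of eHGT_023h, the p was 0.144.

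**Figure D4:**
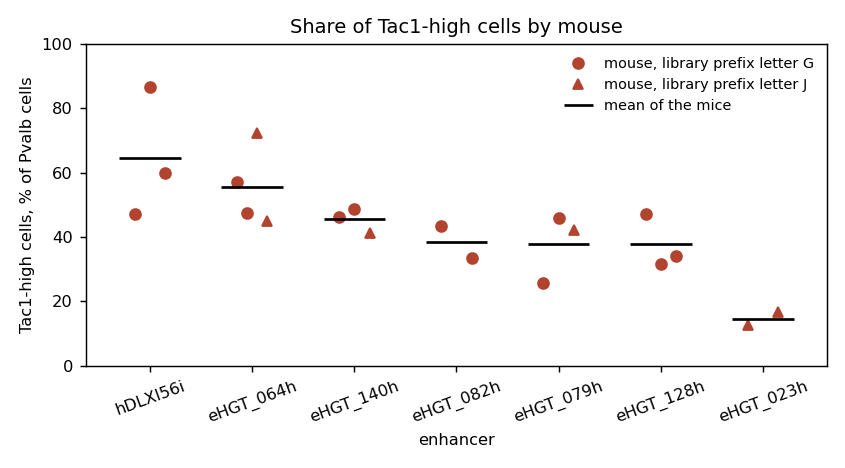
Share of Tac1-high cells among Pvalb cells, in percent, for each of 20 mice (points, circles for library letter G and triangles for J) by enhancer, with the mean as a line. The 2 eHGT_023h mice, at 12.5% and 16.7%, are the lowest, and the hDLXI56i mouse at 86.7% is the highest.

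Within Tac1-high cells, 135 of 17028 genes (0.793%) differed across the 7 enhancers at an adjusted p under 0.05 in an omnibus limma test over 20 mice. The hDLXI56i mice stood apart: 91 of the 135 genes had their lowest mean there and 24 their highest. Each mouse carried a single enhancer, so the enhancer cannot be told apart from the mice that carried it. Whether the Tac1-low cells of these mice shifted alike was not tested. Gad1, a gene of the gate, was 1449 CPM in Tac1-high and 1414 CPM in Tac1-low cells of MouseID-382159 (hDLXI56i). Both values were the lowest of the 18 mice with both sets. Without the 3 hDLXI56i mice 25 of 16553 genes passed, 17 of them among the 135. Without MouseID-400157 of hDLXI56i, which had 3 Tac1-high cells, the count was 553, and with at least 5 cells per mouse it was 594. The count without a mouse of another enhancer fell to 83 (MouseID-473546), 88 (MouseID-475243) and 89 (MouseID-497550).

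The 6 genes of smallest p, Rpa1, Smug1, Rcan2, Ptplad1, Naa60 and Ubac2, were all lowest in hDLXI56i. Rcan2, a regulator of calcineurin, averaged 606 ± 74.9 CPM in the 3 hDLXI56i mice and between 931 and 1094 CPM in the other enhancers (limma adjusted p = 0.00313), and no mouse of another enhancer was under 868 CPM. Ubac2, a protein of the endoplasmic reticulum, averaged 19.8 ± 8.10 CPM in hDLXI56i and between 62.7 and 73.7 CPM elsewhere. Rpa1, a subunit of the single-strand DNA-binding complex, averaged 5.34 ± 2.84 CPM in hDLXI56i and between 27.4 and 53.9 CPM elsewhere (limma adjusted p = 0.000196). The DNA glycosylase Smug1 averaged 0.0763 CPM there and between 7.98 and 26.1 CPM elsewhere, Ptplad1 146 CPM against 314 to 352 CPM, and the acetyltransferase Naa60 57.5 CPM against 138 to 168 CPM.

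Cartpt also differed across enhancers within Tac1-high cells (limma adjusted p = 0.0175, and 0.0399 without hDLXI56i). Its mean was 374 ± 223 CPM in hDLXI56i, 284 ± 117 CPM in eHGT_064h, 242 ± 19.1 CPM in eHGT_140h, 142 ± 60.7 CPM in eHGT_079h, 93.0 ± 43.5 CPM in eHGT_128h, 77.4 ± 54.8 CPM in eHGT_082h and 44.1 ± 17.3 CPM in eHGT_023h. All 3 eHGT_140h mice, from 223 to 261 CPM, lay above every mouse of the 4 enhancers below it. Rbp4 and Kcnc1 did not pass (limma adjusted p = 0.741 and 0.594), with Rbp4 means between 229 and 377 CPM and Kcnc1 means between 525 and 748 CPM. Without hDLXI56i, Serac1, Armc6, Ralgds and Zfyve28 were among the 25 genes, each lowest in eHGT_023h, where Armc6 averaged 2.53 ± 0.730 CPM in 2 mice against 18.4 to 31.95 CPM in the other 5. These 4 genes were chosen after their values were seen. The 2 eHGT_023h mice, both letter J, had only 3 and 4 Tac1-high cells. Ralgds, Serac1 and Zfyve28 averaged 0.511, 0.477 and 0.698 CPM there, under the 1.68 CPM of 1 read in the median Tac1-high cell. The part of the few cells in these low values was not tested.

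**Figure D5:**
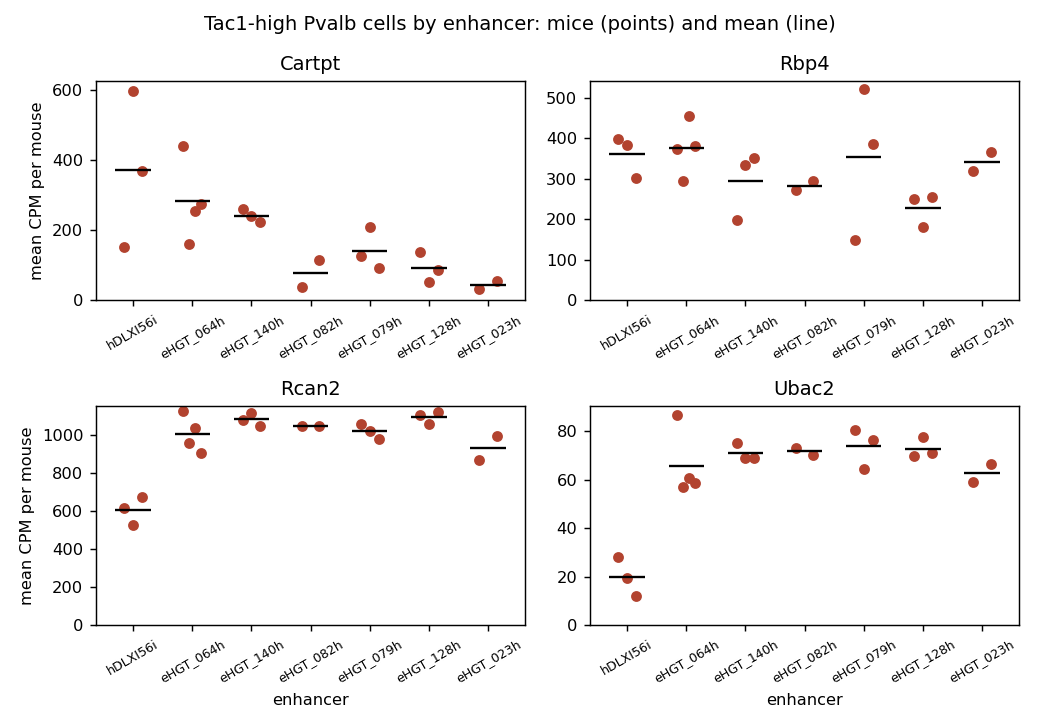
Mean CPM per mouse (points) and per enhancer (lines) of Cartpt, Rbp4, Rcan2 and Ubac2 in Tac1-high Pvalb cells, 20 mice. Rcan2 and Ubac2 are lowest in the 3 hDLXI56i mice, Cartpt runs from 374 CPM in hDLXI56i to 44.1 CPM in eHGT_023h, and the Rbp4 means lie between 229 and 377 CPM.

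The difference between Tac1-high and Tac1-low cells was not shown to depend on the enhancer. In a limma test of that difference across 6 enhancers (17 mice, 17941 genes) 0 genes passed (0.0%), with a smallest adjusted p of 0.103 and 973 genes at an unadjusted p under 0.05. The test did not cover hDLXI56i, since MouseID-384912 and MouseID-400157 had 2 Tac1-low cells each, under the limit of 3. With a pseudocount of 0.1 the count was 17, and with no filter on low values 18. Rbp4 had an adjusted p of 0.815 in it, Cartpt 0.76 and Necab1 0.997. A p that misses the threshold does not show that the enhancers were alike.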

How the data were processed

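The deposited table held CPM values per gene for single cells of 33 mice, with cells in rows and genes in columns, and its rows were matched to samples by the labels' library names. Reads were aligned with STAR to mm10, per the submitters' processing notes. For the counting program, annotation and cell filters, the entry is: not given in the sources used here. The CPM values of the authors' deposited table are whole multiples of the value of 1 read within each cell, so reads per cell could be recovered (833 to 1018507, and 100923 to 1018507 in Tac1-high cells). These libraries carry no stated molecular identifiers, so intervals and limits cover counting error only.

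Cells were gated by the stated CPM limits. The mean CPM per mouse and set was taken for mice with at least 3 cells of each set, and log2(mean CPM + 1) was fitted with limma 3.58.1 (trend and robust, with statmod 1.5.0, R 4.3.3) with the mouse as block, since both sets of a pair come from the same animal. Genes at 1 CPM or more in at least 2 profiles were tested, without the 6 genes of the gate. A difference on this log2 scale understates the change of low genes. Shares and depth were compared by permutation over mice with scipy 1.17.1 (Python 3.11.15, numpy 2.4.6, pandas 2.3.3), and figures were drawn with matplotlib 3.10.9. Shares used mice with at least 5 Pvalb cells.

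The named genes were the 12 largest rises and 12 largest falls of those called, provided the higher set averaged 20 CPM or more with the same direction in at least 80% of mice, leaving out sex-linked markers, unnamed, mitochondrially encoded and ribosomal protein genes. Across enhancers they were the 6 of smallest p with at least 20 CPM in 1 enhancer, and among Tac1-high cells the 10 of highest variance. List members and the markers given for the set were also named. The members and lists were chosen with earlier results of these data known. Symbols were matched to RefSeq on GRCm38.p6, the assembly behind mm10, for 37316 of 45768 genes. No doublet caller was run. Near-copy genes such as Akr1c18 are uncertain. Some genes are not reported here. The scripts were tested on simulated data.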

Additional observations from a re-analysis of the deposited data

Results flagged for a closer look

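In 15 groups of 4 to 10 mice, 2 values lay far from the rest of their group, and chance flags about 1 in 20 groups. Both belong to Tac1-high cells of eHGT_064h. Rpa1 averaged 50.3 CPM in MouseID-498750, while the other 3 mice lay between 33.7 and 36.03 CPM. Ubac2 averaged 86.7 CPM in MouseID-468100, while the other 3 mice lay between 57.01 and 60.6 CPM.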

How the results depend on the processing

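Against Tac1-low cells 168 genes were called. A pseudocount of 10 gave 27 and voom on recovered reads, chosen after seeing the data, 263. Leaving out each mouse gave 160 to 177, and the other settings 134 to 246. The replicate block pairs sets of the same animals, and without it 142 genes were called, all of them among the 168. A Tac1 gate of 1000 CPM called 211, with 53 higher. Against all other cells 524 were called, with 1647 at a pseudocount of 0.1, 97 at 10, 262 with the mean of log2 values, 892 with voom, 510 without the replicate block and 469 to 581 without each mouse. Across enhancers 135 passed, with 594 at 5 or more cells per mouse, 25 without the hDLXI56i mice and 83 to 553 without each mouse. For the difference across enhancers, 0 passed, with 17 at a pseudocount of 0.1, 18 without a filter and 0 to 1 without each mouse. The share test had p = 0.00636 by permutation, 0.144 on letter G mice, 0.0674 without the eHGT_023h mice and 0.00191 to 0.0674 without each mouse. The difference in reads ran from -14800 to -5923 and in genes from -179 to -121 without each mouse. No named gene reversed. A pseudocount of 10 ended 16 of their calls, and a Tac1 gate of 100 CPM ended those of Ptprt, Adcy2, Cdh20 and Nrg1 among others. A Tac1 gate of 1000 CPM ended those of Syt5 (log2 1.29) against Tac1-low cells and of Eya1 (0.95) and Ptpre (0.98) against all other cells, among others. The cause was not tested. The planned edgeR and DESeq2 fits on recovered reads were not run, and voom was the fit made on those reads. With few cells per mouse, transcripts near 1 read per cell are poorly measured.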
